A study of Mus musculus with 1049 samples.

Results

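The chemokine ligands made by dermal fibroblasts are described here by 8 genes, Ccl2, Ccl7, Ccl8, Ccl11, Ccl19, Cxcl1, Cxcl12 and Cxcl14, taken by name from the 51777 genes common to the count tables. All 8 were found, all 8 passed the filter on low counts that 16684 genes passed, and all 8 were compared between ages. The cells came from the skin of C57Bl/6 mice aged 1.5 or 2.5 days (newborn), 2 months (young) and 18 months (old), with no genotype or treatment given beyond age. They were sorted singly from collagenase-digested dermis after staining for CD45, CD117, EpCam, CD31, CD34 and Pdgfra, and sequenced full length with Smart-seq2. The newborn mice were female littermates, per the labels' protocols, and newborn subpopulations were sorted with added antibodies to Dlk1, CD26 and Sca1. The sex of the adult mice is not given in the sources used here, so age and sex cannot be told apart if they differ, and where wells came from the newborn sort, neither can age and sort. The labels name 2 experiments and no single mice.

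Chemokines are small secreted proteins that draw leukocytes along a gradient by binding G protein-coupled receptors. The CC and CXC families are named for the spacing of their first cysteines, and the secreted ligands bind to proteoglycans of the surrounding matrix. In skin, Ccl2 and Ccl7 attract monocytes through CCR2, mouse Ccl8 signals through CCR8, Ccl11 (eotaxin) attracts eosinophils through CCR3, and Ccl19 guides dendritic and T cells through CCR7. Cxcl1 attracts neutrophils through CXCR2, Cxcl12 retains and guides cells through CXCR4, and Cxcl14 is a chemokine of epithelia and stroma.

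Of 861 wells on 9 plates, 735 cells were kept, 249 newborn, 246 young and 240 old, and every plate held all 3 ages. Kept cells held 246349 to 4331293 reads. Reads were added over the cells of each age and experiment, for 6 sums of between 119682449 and 195324769 reads, 2 per age (n = 2). Levels are CPM, with library sizes corrected by edgeR's TMM factors, and a share of cells with a read was taken after thinning each cell to 100000 reads, with an exact Clopper-Pearson 95% interval that covers the counting of cells only. P-values measure the spread between these 2 experiments, which may be technical, and an exact permutation test of 2 against 2 sums cannot go below 0.333 (two-sided). The summed level of 8 fibroblast markers was 79690 and 66450 CPM in newborn, 184400 and 181200 in young, then 136600 and 144100 in old sums, with no marker at 0 reads. Dcn held most of it in adult sums. Col3a1 went the other way, from 26593 and 23120 CPM in newborn to 3613 and 3270 in old sums, and Col1a1 and Col1a2 were also lowest in old sums. In summed cells a lower level in every cell and fewer cells with the transcript look alike, so each level is given with its share of cells.

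Most of the CC genes are neighbours. Ccl2, Ccl7, Ccl11 and Ccl8 lie in that order on the plus strand of chromosome 11 (GRCm38, GENCODE release M21) within 81.2 kb, from Ccl2 at chr11:82035571-82037453 to Ccl8 at chr11:82115185-82116799. Ccl12, which encodes a further CCR2 ligand in mouse, lies between Ccl11 and Ccl8 and had 0 reads over the 735 cells, for an upper limit of 0.408% of cells with a read. Ccl19 is on chromosome 4 (42754525 to 42756577, minus strand), Cxcl1 on chromosome 5 (90891241 to 90893115), Cxcl12 on chromosome 6 (117168535 to 117181367) and Cxcl14 on chromosome 13 (56288643 to 56296551, minus strand).

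Promoter windows of RefSeq (GRCm38.p6), the 250 bases before the start, were in hand for 5 of the 8 genes, Ccl8, Ccl19, Cxcl1, Cxcl12 and Cxcl14. Those of Cxcl1, read in a minority of cells at every age, and of Ccl8, near 0 in newborn cells and read in many adult cells, are printed to contrast both patterns. On both strands 4 motifs were searched. They were the kB-type motif (GGG, any 3 bases, TTCC), bound by NF-kB factors, the GAS motif (TTC, any 3 bases, GAA), bound by STAT factors, a STAT6-type motif (TTC, any 4 bases, GAA) and the AP-1 motif (TGANTCA). Capitals mark kB-type matches.
Cxcl1 (chr5:90890995-90891240, plus strand): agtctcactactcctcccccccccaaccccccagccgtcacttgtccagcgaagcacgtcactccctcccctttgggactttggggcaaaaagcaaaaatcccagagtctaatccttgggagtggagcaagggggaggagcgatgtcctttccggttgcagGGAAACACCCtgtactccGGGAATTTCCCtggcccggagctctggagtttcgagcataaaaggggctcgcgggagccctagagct
Ccl8 (chr11:82114935-82115184, plus strand): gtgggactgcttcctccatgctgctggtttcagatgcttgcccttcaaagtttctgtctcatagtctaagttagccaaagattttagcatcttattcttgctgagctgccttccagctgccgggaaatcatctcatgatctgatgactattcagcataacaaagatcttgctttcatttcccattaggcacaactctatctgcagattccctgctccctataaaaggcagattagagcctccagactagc
The Cxcl1 window is printed up to the first base of the GENCODE gene, 246 bases. Counted from the RefSeq start, it held kB-type matches at -89 to -80 on the minus strand, at -71 to -62 on the plus strand and at -70 to -61 on the minus strand, the last 2 overlapping. The motif was in 4.65% of 32536 promoters of the same length. The windows of Ccl8, Ccl19 and Cxcl12 held none of the 4 motifs. The Cxcl14 window held a GAS match at -191 to -183, a motif in 7.04% of promoters. The STAT6-type and AP-1 motifs were in 5.89% and 6.73% of promoters.

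Ccl11, Ccl8 and Ccl19 were called higher in young than in newborn cells and in old than in newborn cells by edgeR's quasi-likelihood test at an adjusted p under 0.05. Of all genes tested, 0.719% were called higher in young than in newborn cells and 0.797% in old than in newborn cells (0.779% and 0.935% either way). With the experiment, a batch shared by all ages, as a replicate block, edgeR called Ccl11 alone of the 8 in each comparison, and 0.15% and 0.306% of all genes. No member was called lower in young (0.0599% of all genes were) or in old than in newborn cells (0.138%), and none was called between old and young. The median log2 fold change of the 8 genes was 1.88 for young over newborn, beside -0.07 over all genes tested. It was 1.69 for old over newborn, beside -0.08, and -0.19 for old over young, beside 0. Cxcl14, with 0 reads in old sums, lay at the low end. The size of its fold change did not set these medians, but they count it as 1 of the 8 values and would be higher without it. Ccl8, Ccl11 and Ccl19 encode ligands of 3 different receptors, CCR3 (Ccl11), CCR8 (Ccl8) and CCR7 (Ccl19).

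**Figure D1:**
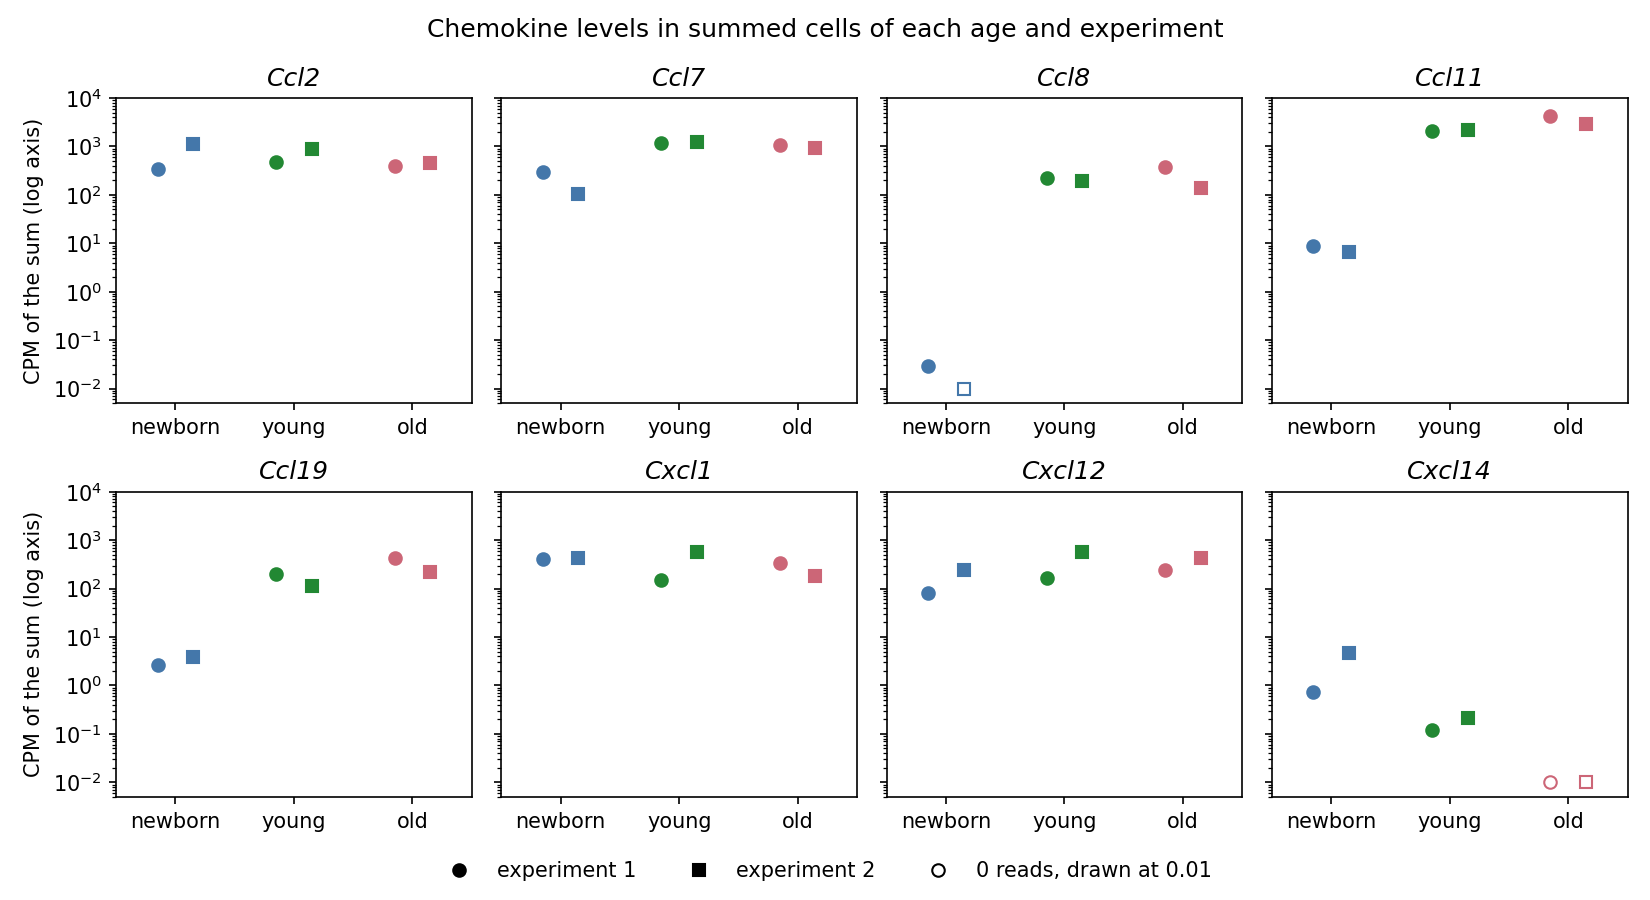
Levels (CPM, log axis) of the 8 chemokines in the 6 sums, newborn, young and old from left to right in each panel, with 1 point per experiment. Ccl8, Ccl11 and Ccl19 lie at 8.66 CPM or below in newborn sums and at 113 CPM or above in adult sums. The levels of Ccl2, Cxcl1 and Cxcl12 overlap between newborn and adult sums, and open points are sums with 0 reads.

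Ccl11 was read in most adult cells and in few newborn cells. It stood at 8.66 and 6.67 CPM in newborn sums (experiments 1 and 2), at 2115 and 2154 CPM in young sums and at 4213 and 2897 CPM in old sums. All 4 adult sums lay far above both newborn sums, and both old sums lay above both young sums. How many of all genes show such an order of levels was not counted, here or for the members below. The log2 fold change was 8.12 ± 0.35 for young over newborn (SE, adjusted p = 0.00827) and 8.86 ± 0.36 for old over newborn (adjusted p = 0.00537). Both calls held with the experiment as a replicate block, with adjusted p-values of 0.0347 and 0.0250. Within experiments 1 and 2 the log2 ratio was 7.93 and 8.33 for young over newborn and 8.93 and 8.76 for old over newborn. Between the adult ages the level averaged 3555 ± 930 CPM in old and 2134.3 ± 27.2 CPM in young sums (SD, n = 2 each). The log2 fold change of 0.74 ± 0.26 (edgeR, p = 0.0346, adjusted p = 0.910) did not pass the test.

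Most adult fibroblasts held Ccl11 reads. Shares were 1.90% (95% interval 0.393 to 5.45) and 2.20% (0.267 to 7.71) of newborn cells, 81.7% (74.3 to 87.7) and 87.5% (79.6 to 93.2) of young cells and 83.3% (75.7 to 89.4) and 87.7% (80.3 to 93.1) of old cells. Old and young shares overlapped. The median level among cells with a read was 3984 and 2608 CPM in old cells against 1661 and 1658 CPM in young cells, higher in both old sums. Plate by plate, the lowest share of adult cells was 66.7% and the highest share of newborn cells 5.00%, so the groups did not overlap on any of the 9 plates. Of the 12 newborn cells with a Ccl11 read before thinning, 5 were in experiment 1, with a median of 490.5 CPM, and 7 in experiment 2, with a median of 2.14 CPM.

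Ccl8 was all but absent from newborn cells and held by many adult cells. It had 6 reads in 3 cells of the first newborn sum (0.0291 CPM) and 0 in the second, against 226 and 194 CPM in young sums and 369 and 135 CPM in old sums. The adult sums did not overlap with the newborn sums, while the old sums lay on either side of the young sums. With reads pooled over the sums of an age, Ccl8 was 9152-fold higher in young and 10903-fold higher in old than in newborn cells. The fitted log2 fold changes of 13.58 ± 1.30 (adjusted p = 0.0312) and 13.84 ± 1.31 (adjusted p = 0.0274) depend on the prior count, since the newborn level rests on 6 reads. With the replicate block, edgeR's adjusted p-values were 0.0655 and 0.0622, above the threshold of 0.05. Old over young was 0.26 ± 0.75 (adjusted p = 1).

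After thinning, 0 of 249 newborn cells held a Ccl8 read, for an upper limit of 1.20%. Shares were 38.0% (30.02 to 46.5) and 48.1% (38.2 to 58.1) in young and 52.4% (43.3 to 61.3) and 37.7% (28.8 to 47.3) in old cells. Young and old shares overlapped, and their order changed between the experiments. Adult plates held 24.1 to 59.3% of cells with a read and newborn plates 0%.

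Ccl19 was low in newborn cells and was read in most adult cells. It stood at 2.605 and 3.92 CPM in newborn, 203 and 113 CPM in young, then 421 and 216 CPM in old sums. All adult sums lay above the newborn sums, and both old sums lay above both young sums. The log2 fold change was 5.60 ± 0.59 for young over newborn (adjusted p = 0.0394) and 6.61 ± 0.62 for old over newborn (adjusted p = 0.0271), and with the replicate block edgeR's adjusted p-values were 0.105 and 0.0770. Old over young was 1.01 ± 0.49 (adjusted p = 0.910), with log2 ratios of 1.05 and 0.93 within experiments 1 and 2, and did not pass the test.

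Shares with a Ccl19 read were 3.80% (1.41 to 8.08) and 6.59% (2.46 to 13.8) of newborn, 85.9% (79.1 to 91.2) and 65.4% (55.4 to 74.4) of young and 82.5% (74.8 to 88.7) and 88.6% (81.3 to 93.8) of old cells. Young cells of experiment 2 stood below the other adult sums. With at least 10 of the 100000 reads required, the share was 74.6 and 58.8% in old cells against 59.2 and 26.0% in young cells. Near-identical copies of Ccl19 lie on the same chromosome. The transcripts of Gm12407 and Ccl19-ps1 match Ccl19 over 99.4% and 98.8% of bases, and held 7777 and 2612 reads against 148179 for Ccl19, so the split of reads between them is uncertain.

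Ccl7 had a higher level in adult than in newborn sums, without passing the main test. It stood at 295 and 106 CPM in newborn, 1200 and 1218 CPM in young, then 1073 and 950 CPM in old sums. The adult sums lay above the newborn sums, and both old sums lay below both young sums. Its log2 fold changes were 2.59 ± 0.51 for young over newborn (adjusted p = 0.148) and 2.33 ± 0.51 for old over newborn (adjusted p = 0.156), so neither passed edgeR's test, and old over young was -0.26 ± 0.49 (adjusted p = 1). DESeq2 called both, with adjusted p-values of 1.2e-05 and 0.00010, as did limma on the mean log2(CPM + 1) per cell, over the 6970 genes read in 10% or more of the cells of 1 age, with 0.0031 and 0.0029. These fits called many more genes than edgeR did. DESeq2 called 15.8% of genes with an adjusted p for young over newborn and 18.5% for old over newborn, and limma 10.9% and 15.4%.

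Ccl7 reads lay in few newborn cells and in most adult cells. Reads were found in 6.33% (3.08 to 11.3) and 2.20% (0.267 to 7.71) of newborn, 64.8% (56.3 to 72.6) and 70.2% (60.4 to 78.8) of young and 70.6% (61.9 to 78.4) and 60.5% (50.9 to 69.6) of old cells. In newborn sums the top 5% of cells held 99.4 and 99.97% of all Ccl7 reads, and the highest single cell stood at 25710 CPM. In adult sums the top 5% held 36.5 to 41.9%. Where so few cells hold a read, as in newborn sums, this measure is bound to be high and largely restates the share. The highest newborn plate had 13.3% of cells with a read and the lowest adult plate 48.0%.

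**Figure D2:**
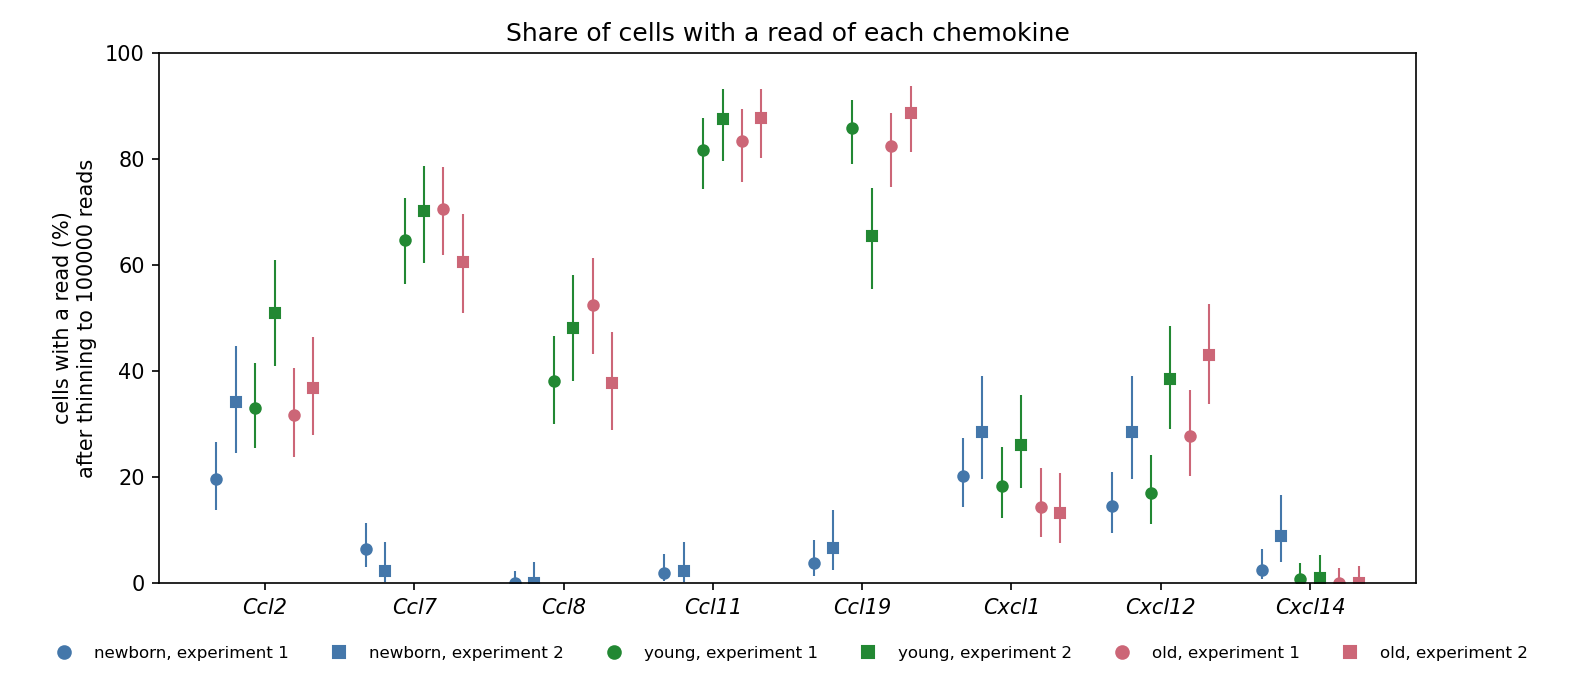
Share of cells with a read of each chemokine (%), after thinning each cell to 100000 reads, in the 6 sums; bars are exact 95% binomial intervals for cells. Ccl7, Ccl8, Ccl11 and Ccl19 lie at 13.8% or below in newborn cells, intervals included, and at 37.7% or above in adult cells, while the shares of Ccl2, Cxcl1 and Cxcl12 overlap between newborn and adult cells.

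By share of cells, Ccl7, Ccl8, Ccl11 and Ccl19 were higher in all 4 adult sums than in both newborn sums, a pattern held by 7.79% of the genes tested. No member had a higher share in both old than in both young sums, which 8.3% of genes did. In the other direction, Cxcl14 alone had a lower share in all 4 adult sums than in both newborn sums, as did 27.5% of genes. The shares of Cxcl1 and Cxcl14 were lower in both old than in both young sums, as were those of 21.6% of genes. The chromosome 11 cluster was not uniform in this. Its first gene, Ccl2, overlapped between newborn and adult cells, and Ccl12 was at 0 reads.

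Ccl2, a CCR2 ligand that attracts monocytes, was read in cells of every age, in overlapping shares. It stood at 347 and 1100 CPM in newborn, 473 and 865 CPM in young, then 394 and 460 CPM in old sums. The newborn sums spanned all the others, and both old sums lay below both young sums. The log2 fold change was -0.11 ± 0.61 for young over newborn (adjusted p = 0.982), -0.76 ± 0.61 for old over newborn (adjusted p = 0.662) and -0.65 ± 0.61 for old over young (adjusted p = 1), none past edgeR's test. Shares were 19.6% (13.7 to 26.7) and 34.1% (24.5 to 44.8) of newborn, 33.1% (25.4 to 41.5) and 51.0% (41.0 to 60.9) of young and 31.7% (23.7 to 40.6) and 36.8% (28.0 to 46.4) of old cells. In newborn sums the top 5% of cells held 83.6 and 72.4% of Ccl2 reads, against 43.5 to 52.5% in adult sums.

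Cxcl1, the neutrophil attractant, was restricted to a minority of cells at every age. Levels were 406 and 431 CPM in newborn, 153 and 583 CPM in young, then 340 and 185 CPM in old sums. The young sums spanned all the others. Log2 fold changes were -0.19 ± 0.67 for young over newborn (adjusted p = 0.969), -0.67 ± 0.67 for old over newborn (adjusted p = 0.755) and -0.49 ± 0.67 for old over young (adjusted p = 1). Shares were 20.3% (14.3 to 27.4) and 28.6% (19.6 to 39.0) of newborn, 18.3% (12.3 to 25.7) and 26.0% (17.9 to 35.5) of young and 14.3% (8.69 to 21.6) and 13.2% (7.56 to 20.8) of old cells. Both old shares lay below both young shares, a pattern that 21.6% of the genes tested held, and the intervals overlapped.

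Cxcl12, the CXCR4 ligand, was read in more cells of experiment 2 at each age. Levels were 83.0 and 246 CPM in newborn, 162 and 575 CPM in young, then 243 and 435 CPM in old sums. Ages overlapped, and log2 fold changes of 1.16 ± 0.81 for young over newborn (adjusted p = 0.638), 1.04 ± 0.81 for old over newborn (adjusted p = 0.648) and -0.12 ± 0.80 for old over young (adjusted p = 1) did not pass edgeR's test. Within experiments 1 and 2, the log2 ratio was 0.96 and 1.22 for young over newborn and 1.55 and 0.82 for old over newborn. Shares were 14.6% (9.46 to 21.04) and 28.6% (19.6 to 39.0) of newborn, 16.9% (11.1 to 24.1) and 38.5% (29.1 to 48.5) of young and 27.8% (20.2 to 36.5) and 43.0% (33.7 to 52.6) of old cells. The shares of Ccl2, too, were higher in experiment 2 at each age. The median number of genes per cell was 2192.5 and 2746 in newborn, 1968 and 2515.5 in young, then 1813.5 and 2137 in old cells of experiments 1 and 2, and its part in these shares was not tested.

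Cxcl14 was close to the limit of detection. It had 810 reads in 12 of 249 newborn cells, 46 reads in 3 of 246 young cells and 0 reads in 240 old cells, for an upper limit of 1.25% of cells. Levels were 0.717 and 4.65 CPM in newborn, 0.118 and 0.210 CPM in young and 0 CPM in both old sums. Against a floor of 3 reads over the old cells, the pooled level was 325-fold higher in newborn and 16.8-fold higher in young cells. These folds are not bounds, since the reads of a cell are not independent. By cells, the share of 3 in 246 young cells lies below the upper limit of 1.25% for old cells. The newborn reads lay mostly in experiment 2, with 662 of the 810, and with newborn cells of experiment 1 alone the fold was 100.8. None of the comparisons passed edgeR's test, with adjusted p-values of 0.513 for young over newborn, 0.206 for old over newborn and 0.910 for old over young.

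**Figure D3:**
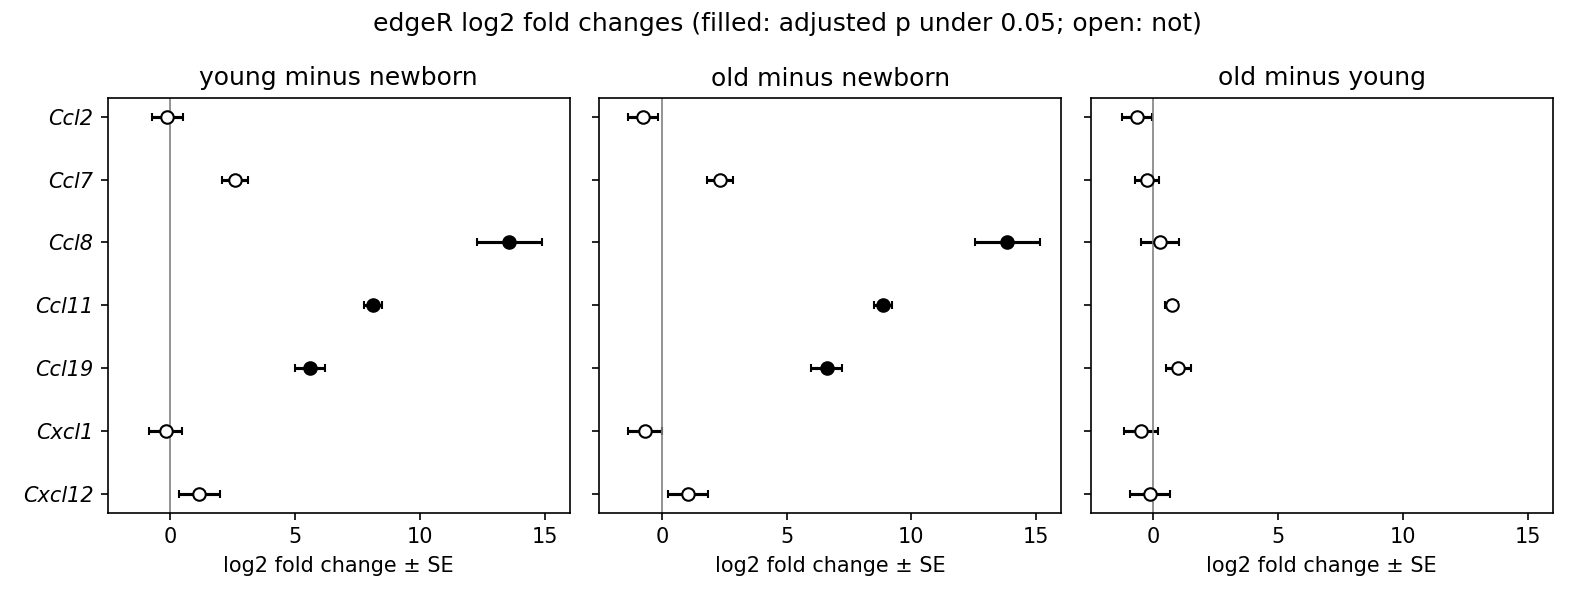
Log2 fold changes (edgeR, ± SE) of 7 chemokines in the 3 comparisons of ages, with Cxcl14 left out because a group holds 0 reads; filled points pass an adjusted p under 0.05. Ccl8, Ccl11 and Ccl19 pass against newborn cells in young and in old, and no point passes for old over young.

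None of the 16684 genes was called between old and young cells by edgeR at an adjusted p under 0.05 (0% either way), 810 had an unadjusted p under 0.05, and DESeq2 called 1048. None of the 1048 was a member. Ccl11 was the only member with an unadjusted p under 0.05 in that comparison apart from Cxcl14 (p = 0.0292), whose old sums held 0 reads.

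Per kilobase of exon, the order in old sums was Ccl11 at 3286 ± 860, Ccl7 at 1263 ± 109, Ccl8 at 493 ± 323, Ccl2 at 375 ± 41.4, Ccl19 at 368 ± 167, Cxcl1 at 140 ± 58.4 and Cxcl12 at 41.5 ± 16.5 CPM per kb (SD, n = 2), with Cxcl14 at 0. Ccl11 and Ccl7 lay apart from each other and from the rest, and Ccl8, Ccl2 and Ccl19 did not differ beyond their spread. The length used is the union of all annotated exons of a gene, 8176 bases for Cxcl12 and 511 for Ccl8, so the order depends on the annotation. In plain CPM, Cxcl12 averaged 339 ± 135 in old sums, Ccl19 319 ± 145, Cxcl1 263 ± 110 and Ccl8 252 ± 165. In young sums the order was Ccl11 at 1972 ± 25.2, Ccl7 at 1509 ± 15.7, Ccl2 at 588 ± 243, Ccl8 at 411 ± 44.4, Cxcl1 at 196 ± 162, Ccl19 at 182 ± 73.5 and Cxcl12 at 45.0 ± 35.7 CPM per kb, with Cxcl14 at 0.0897 ± 0.0355. In newborn sums the means were Ccl2 at 636 ± 468, Ccl7 at 250 ± 166, Cxcl1 at 223 ± 9.34, Cxcl12 at 20.1 ± 14.1, Ccl11 at 7.08 ± 1.30, Ccl19 at 3.76 ± 1.07, Cxcl14 at 1.47 ± 1.52 and Ccl8 at 0.0284 ± 0.0402 CPM per kb. Ccl11 led in all 4 adult sums. In newborn sums Ccl7 led in experiment 1, at 368 CPM per kb against 305 for Ccl2, and Ccl2 led in experiment 2, at 967 against 133 for Ccl7. In young cells Ccl2 and Ccl8 did not differ beyond their spread, nor did Cxcl1 and Ccl19, and in newborn cells Ccl2, Ccl7 and Cxcl1 did not.

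The number of chemokines per cell followed the shares. The median newborn cell held reads of 0 of the 8 genes in experiment 1 and of 1 in experiment 2, the median young cell 3 and 4, and the median old cell 4 in both. No chemokine read was found in 55.7 and 37.4% of newborn, 0 and 0.962% of young, then 1.59 and 2.63% of old cells. At least 4 were found in 2.53 and 5.49% of newborn, 46.5 and 60.6% of young, then 57.1 and 54.4% of old cells. The most in any cell was 7 in each adult sum and 5 in each newborn sum.

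**Figure D4:**
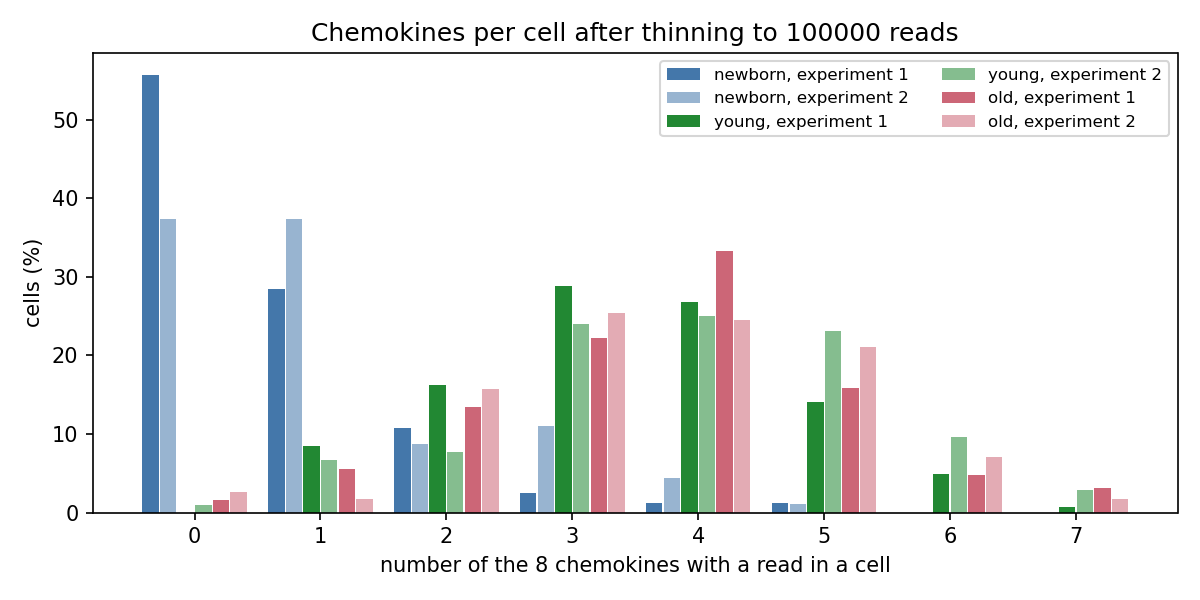
Share of cells (%) by the number of the 8 chemokines with a read, after thinning to 100000 reads, for each age and experiment. Newborn cells lie mostly at 0 and 1, and 3 or 4 are the most frequent numbers in young and old cells.

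Ccl2, Cxcl1 and Cxcl12, whose shares ran from 13.2 to 51.0% over the 6 sums, were found together more often than the product of their shares gives. Cells with both Ccl2 and Cxcl1 numbered 16 and 16 in newborn, 14 and 18 in young, then 12 and 6 in old sums. The ratio to the number from the product of the shares was 2.55 and 1.81 in newborn, 1.63 and 1.31 in young, then 2.10 and 1.09 in old cells. In newborn cells of experiment 1, 51.6% of the cells with Ccl2 held Cxcl1, against 12.6% of those without. In old cells of experiment 2 the values were 14.3 and 12.5%. The pair was thus above 1 in all 6 sums, and weakest in old cells of experiment 2.

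For Cxcl1 and Cxcl12 that ratio was 1.50 and 1.75 in newborn, 1.82 and 1.16 in young, then 2.20 and 1.09 in old cells. For Ccl2 and Cxcl12 it was 1.33 and 1.35 in newborn, 1.64 and 1.18 in young, then 1.35 and 1.22 in old cells. Over the 3931 genes with a read in 10% or more of the cells of every adult sum, the mean ratio to Ccl2 had a median of 1.05, a 95th percentile of 1.31 and a 99th percentile of 1.53. The mean ratio to Ccl2 was 1.53 for Cxcl1, at about the 99th percentile, and 1.35 for Cxcl12, just above the 95th. Against the partner's own ratios, Cxcl1 with Ccl2 lay between the 95th and 99th percentiles of Cxcl1, and Cxcl12 with Ccl2 lay below the 95th of Cxcl12. Cxcl1 and Cxcl12 had a mean of 1.565, between the 95th and 99th percentiles of either gene, which were 1.46 and 1.80 for Cxcl1 and 1.37 and 1.59 for Cxcl12.

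Ccl2 and Ccl7, whose genes are 8.26 kb apart, shared cells in all 6 sums. Of the newborn cells with Ccl7, 7 of 10 in experiment 1 and 2 of 2 in experiment 2 also held Ccl2, against 16.2 and 32.6% of the cells without Ccl7. In adult cells Ccl2 was read in 38.0 and 56.2% of young cells with Ccl7, against 24.0 and 38.7% without. In old cells the shares were 33.7 and 50.7% with Ccl7, against 27.0 and 15.6% without. The ratio ran from 1.06 to 1.38 in adult sums, with a mean of 1.17, below the 95th percentile of ratios to Ccl2 (1.31) and above that of ratios to Ccl7 (1.14).

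Ccl7 and Ccl11 were found together at ratios of 1.13 and 1.09 in old sums and of 1.01 and 0.986 in young sums. Of old cells with Ccl7, 94.4 and 95.7% held Ccl11, against 56.8 and 75.6% of those without. Of young cells with Ccl7, 82.6 and 86.3% held Ccl11, against 80.0 and 90.3% of those without. Spearman's rho between the levels of Ccl7 and Ccl11 over cells was 0.48 and 0.42 in old sums and -0.041 and -0.00033 in young sums. Both old values lay above both young values for this pair, which is among 21 pairs that were looked at. How many pairs of genes show such an order was not counted, and the difference between the ages was not tested. For Ccl8 and Ccl11 rho was 0.34 and 0.44 in old and 0.27 and 0.057 in young sums. Each rho is a description over the 104 to 142 cells of an adult sum, which share library, plates and depth.

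Ccl19 was read alongside Ccl8 in all 4 adult sums at ratios of 1.05 to 1.16, and alongside Cxcl1 at 0.808 to 0.985. Of the 21 pairs of the 7 chemokines with a read in 10% or more of the cells at some age, 11 had a ratio above 1 in all 4 adult sums and 1, Ccl19 with Cxcl1, had a ratio below 1 in all 4. The median ratio of a member to the 3931 genes was itself 1.00 to 1.06. The share of all gene pairs that stay above or below 1 in all 4 adult sums was not counted, so these counts have no background. Within plates the numbers were 10 and 1. With at least 10 reads required they were 4 and 0, and with the stricter filter on cells 8 and 0.

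**Figure D5:**
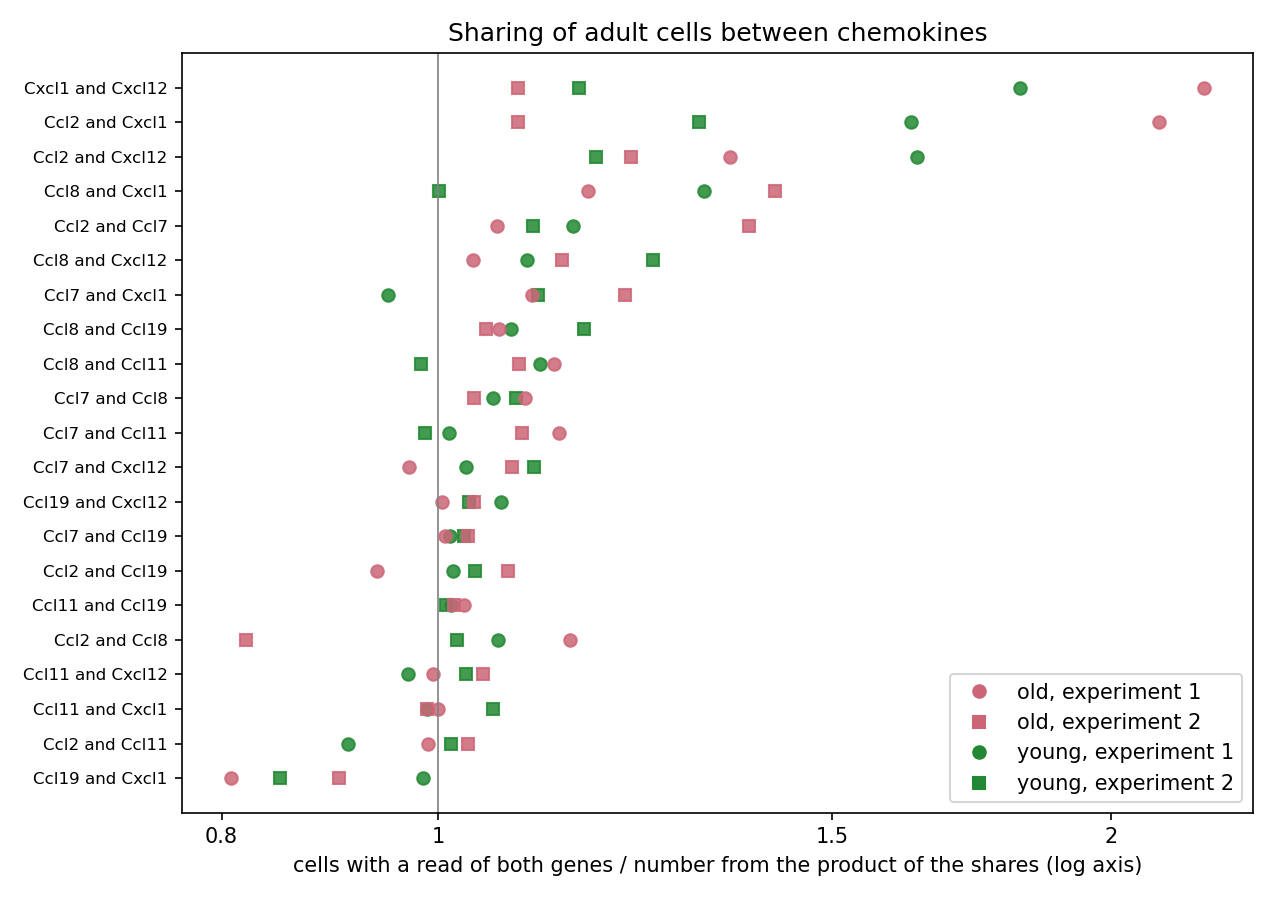
Ratio of the number of cells with reads of both genes to the number from the product of their shares (log axis), for 21 pairs in the 4 adult sums, ordered by the mean ratio; the line marks 1. Cxcl1 with Cxcl12 reaches 2.20 and Ccl2 with Cxcl1 reaches 2.10 in old cells of experiment 1, and Ccl19 with Cxcl1 lies below 1 in every adult sum. With at least 10 reads required, or with the stricter filter on cells, 0 pairs lay below 1 in every adult sum.

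Cells with Ccl2 differed from cells without it in 3 general measures. In each cell the log2(CPM + 1) of 16 immediate early genes, before thinning, was averaged. The median of this level over cells with Ccl2 was higher in all 6 sums. In newborn cells it was 6.22 and 6.97 with Ccl2 against 4.45 and 5.54 without. It was 6.18 and 7.75 against 5.59 and 7.23 in young, then 7.15 and 6.99 against 5.78 and 6.54 in old cells. The median number of genes after thinning was also higher in all 6 sums, for example 1770 against 1557 in young cells of experiment 1. The median share of mitochondrial reads was lower in all 6 sums, for example 2.24% against 2.48% in the same young cells.

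Cells with Cxcl1 and cells with Cxcl12 differed in the same way from cells without them. The median number of genes was higher in all 6 sums for each, at 2021.5 against 1754 for Cxcl1 and 2113 against 1756 for Cxcl12 in newborn cells of experiment 1. The share of mitochondrial reads was lower in all 6 sums for each, at 2.70% against 3.40% for Cxcl1 and 2.97% against 3.31% for Cxcl12 in those cells. The immediate early level was higher with the gene in 5 of 6 sums for each. The exception for Cxcl1 was young cells of experiment 2, at 7.16 with and 7.64 without, and for Cxcl12 newborn cells of experiment 1, at 4.36 with and 4.97 without. The differences were not limited to these genes. Gene numbers were higher with Ccl7 in 5 of 5 sums, with Ccl8 in 4 of 4, with Ccl11 in 3 of 4 and with Ccl19 in 4 of 6. The immediate early level was higher in 4 of 5, 2 of 4, 1 of 4 and 5 of 6 sums in that order, and mitochondrial reads lower in 4, 2, 4 and 3. Genes outside the 8 were not compared in this way. Cells were isolated by enzyme digestion, per the labels' protocols, and the part of these 3 measures in the sharing was not tested.

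The genes whose levels over cells were most like each member were ranked by Spearman's rho averaged over the 4 adult sums. For Ccl2 these were Tnfaip6 (TSG-6, a hyaluronan-binding protein that inflammatory signals induce) at 0.30, Ccl7 at 0.24 and Uap1 (UDP-N-acetylglucosamine synthesis) at 0.23. The median over the 3931 genes was 0.02 and the 99th percentile 0.18. For Ccl7 they were Ccl2 at 0.24, Ccl11 at 0.21 and Nfkbia, the NF-kB inhibitor, at 0.21. For the members described next, the 99th percentile was 0.18 for Cxcl12 and at most 0.16 for the rest, given as a scale and not as a test.

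Ccl8 was most like Serpina3n, a serine protease inhibitor, at 0.30, followed by Ccl11 at 0.28 and B2m, the light chain of MHC class I, at 0.23. Ccl11, a neighbour of Ccl8 on the chromosome, was most like B2m at 0.29, Ccl8 at 0.28 and Mgst1, a microsomal glutathione transferase, at 0.23. Ccl19 was most like B2m at 0.38, its near-copy Gm12407 at 0.37 and Fth1, ferritin heavy chain, at 0.30. B2m was thus among the 3 most alike genes of Ccl8, Ccl11 and Ccl19, the members called higher in adult cells.

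Cxcl1 was most like Gpc3, a glypican, at 0.29, Ifi204 at 0.20 and Elavl1, an RNA-binding protein, at 0.19. Cells with Cxcl1 and Gpc3 were 2.13 times as many as the product of the shares gives. Cxcl12 was most like Gpx3, a secreted glutathione peroxidase, at 0.33, Gfpt2, an enzyme of the hexosamine pathway, at 0.28 and Lbp, lipopolysaccharide-binding protein, at 0.28.

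Of 30 other chemokine ligands, 15 had no read in any cell, 10 were tested and 0 were called in any of the 3 comparisons. Cxcl10, a CXCR3 ligand induced by interferon, stood at 61.1 ± 49.0 CPM in newborn, 145.8 ± 91.2 in young, then 60.9 ± 6.70 in old sums (SD, n = 2). Ccl27a stood at 4.70 ± 1.32, 9.38 ± 8.89 and 9.95 ± 5.93 CPM.

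Of 23 chemokine receptors, 13 had no read, 9 were tested and 0 were called in any comparison. The 2 with a read in 10% or more of the cells at some age were atypical receptors that bind chemokines without classical signalling. Ackr3, a receptor of Cxcl12, stood at 157 ± 15.0 CPM in newborn, 190 ± 78.7 in young, then 199 ± 1.32 in old sums. Ackr1, which binds many CC and CXC ligands, stood at 2.09 ± 2.95, 75.8 ± 22.7 and 70.5 ± 0.192 CPM, with log2 fold changes of 5.19 ± 2.48 for young over newborn (edgeR, adjusted p = 0.476) and 5.08 ± 2.47 for old over newborn (adjusted p = 0.429).

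Among 31 cytokine receptors and transcription factors that act upstream of chemokines, 0 were called in any comparison. For young over newborn 27 had a positive log2 fold change, with a median of 1.40, beside -0.07 over all genes tested. For old over newborn 28 did, with a median of 1.27, beside -0.08. The share of all genes with a positive log2 fold change was not counted. Of the 31, 23 were read in 10% or more of the cells at some age, and genes of like detection were not compared. Ifngr1, the interferon gamma receptor chain, averaged 495 ± 77.8 CPM in young and 438 ± 5.69 in old against 84.7 ± 31.0 in newborn sums, with adjusted p-values of 0.0598 and 0.0677. Nfkbia averaged 2576 ± 774 CPM in young and 2214 ± 142 in old against 1022 ± 401 in newborn sums (edgeR, adjusted p = 0.249 in each comparison). Irf1, an interferon-induced factor, averaged 614 ± 360 CPM in young and 600 ± 167 in old against 157 ± 56.7 in newborn sums, and Nfkbiz 195 ± 44.9 in young and 252 ± 103 in old against 82.4 ± 25.6 CPM in newborn sums.

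Of 16 immediate early genes, 2 were called higher in young than in newborn and in old than in newborn cells, Klf4 and Fosb, both transcription factors. Klf4 averaged 268 ± 23.7 CPM in young and 303 ± 49.0 in old against 37.1 ± 6.58 in newborn sums. Fosb averaged 252 ± 68.2 CPM in young and 269.5 ± 33.8 in old against 35.8 ± 0.370 in newborn sums. With the replicate block neither passed, with edgeR's adjusted p between 0.0647 and 0.0847. Fos, Dusp1, Egr1 and Ier2, the most abundant of the list, were not called.

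Of 16 other inflammatory products, 11 were tested and 2 were called higher in both comparisons with newborn cells, Has1, a hyaluronan synthase, and C3, complement component 3. Has1 averaged 1030 ± 92.2 CPM in young and 1030 ± 88.5 in old against 191 ± 47.1 in newborn sums. C3 averaged 874 ± 351 CPM in young and 924 ± 7.65 in old against 0.0281 ± 0.0397 in newborn sums. Il6 averaged 287 ± 62.7 CPM in young and 268 ± 40.2 in old against 52.4 ± 25.6 in newborn sums (edgeR, adjusted p = 0.120 and 0.117). Icam1 was not called either. With the replicate block Has1 and C3 did not pass, with edgeR's adjusted p between 0.0800 and 0.108.

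Of 11 proteoglycans that can hold chemokines, 1, Dcn (decorin), was called higher in both comparisons with newborn cells, with log2 fold changes of 2.79 ± 0.17 (adjusted p = 0.00990) and 2.84 ± 0.17 (adjusted p = 0.00867). With the replicate block edgeR's adjusted p was 0.0505 and 0.0407. Gpc3, the gene most like Cxcl1 over adult cells, averaged 309 ± 92.4 CPM in young and 274 ± 300 in old against 2224 ± 322 in newborn sums (edgeR, adjusted p = 0.308 and 0.249). Bgn and Sdc2 were not called.

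Markers of immune cells, which also make chemokines, had few reads, and their summed level was higher in adult than in newborn sums. Ptprc (CD45), Adgre1 and Cd3e had 0 reads in all 735 cells, and Csf1r was read in 3 newborn, 40 young and 10 old cells. The summed level of the 8 immune markers was 2.73 and 2.84 CPM in newborn, 186.5 and 54.0 in young, then 23.1 and 39.5 in old sums, with 3 to 6 of the 8 markers at 0 reads. Csf1r alone held 160 and 36.7 CPM of the young sums. Cd79a went the other way, with 435 reads in newborn, 174 in young and 0 in old cells. In the 677 cells without a read of Ptprc, Kit, Epcam, Pecam1, Csf1r or Cdh5, edgeR called the same 3 members, Ccl8, Ccl11 and Ccl19, in both comparisons with newborn cells. Ptprc and Cdh5 had 0 reads and so removed no cell. The immune markers Cd68 and Cd74 and the endothelial marker Plvap were not part of this filter.

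Other marker lists also moved with age, and their part in the chemokine differences was not tested. The 5 endothelial markers summed to 23.5 and 5.64 CPM in newborn, 82.0 and 44.4 in young, then 74.3 and 63.2 in old sums, with 2 to 4 of the 5 at 0 reads. Cdh5 and Tie1 had 0 reads in all sums, and Plvap held most of the adult reads. The 5 reticular dermis and preadipocyte markers summed to 130.7 and 306.7 CPM in newborn, 3526 and 5451 in young, then 3777 and 5352 in old sums, with 0 to 3 at 0 reads. Ly6a, which encodes the Sca1 of the newborn sort, held most of the adult reads, while Dlk1 and Fabp4 had 0 reads in old sums. The 5 papilla and sheath markers summed to 327 and 353.5 CPM in newborn, 0.0131 and 7.37 in young and 0 in both old sums, with 2 to 5 at 0 reads. Wif1 held most of the newborn reads, and Sox2 and Corin had 0 reads throughout.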

How the data were processed

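The authors deposited raw read counts per gene and well, 1 table per plate, which were used as counts; the build GRCm38 and FastQC are named in the submitters' processing notes. No source used here gives the aligner, the counter or the strand setting. Of all non-zero counts 74.85% were even, so that a pair of mates may count as 2 reads. No molecular identifiers were used, so intervals and floors cover counting error only.

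Of 1049 labelled columns, 5 without values were left out. Well by well, 2 pairs of plate tables correlated at 0.994 (at most 0.359 for other pairs) and were added as 2 runs of 1 plate. Of the genes, 908 not common to all tables were left out, and 51633 matched GENCODE M21, which gave symbols. Cells had at least 50000 reads, at least 1000 genes and at most 25% mitochondrial reads. Since wells were sorted for single cells, doublets were not called. Age was compared over the 6 sums with edgeR 4.0.16 in R 4.3.3 (TMM, filterByExpr, robust quasi-likelihood fit, Benjamini-Hochberg threshold 0.05, common biological coefficient of variation 1.135, 3 residual degrees of freedom), tested on simulated data. The experiment is a batch that the labels give and every age shares, so a fit with it as a replicate block stands beside the main values; deviations of sums of an experiment correlated at -0.00017 to 0.0125. Alternatives used DESeq2 1.42.0, limma 3.58.1, RLE factors, other filters, thinned cells, stricter cells (at least 200000 reads, 1500 genes, at most 10% mitochondrial reads) and each sum left out. Python 3.11.15, numpy 2.4.6, scipy 1.17.1 and pandas 2.3.3 gave the shares and pairs.

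The members, gene lists and motifs were chosen with earlier results of these data known. From each list the text names the 4 genes of highest mean CPM, or all genes with a read in 10% or more of the cells at some age where fewer than 5 had one, and the 3 most alike genes of each member; Klf4 and Fosb, and the marker genes, were named after their values were seen.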

Additional observations from a re-analysis of the deposited data

How the results depend on the processing

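For young over newborn the 3 calls became 1 (Ccl11) with the experiment as a replicate block, and 4 (with Ccl7) under DESeq2, in thinned cells (1.79% of all genes called), over genes read in 10% of cells (7.06%) and by limma over those same genes and means per cell, where Cxcl14 was not tested. For old over newborn they became 1 with the replicate block, 5 under DESeq2 (with Ccl7, and Cxcl14 lower) and 4 in thinned cells (1.98%), over genes read in 10% of cells (7.89%) and by limma. RLE factors, no filter, the stricter cells and cells without marker reads left 3 in each. Leaving out 1 sum gave 0 to 1 calls in both comparisons with newborn cells and 0 between old and young; without any single old sum no gene at all was called in either comparison with newborn cells. Without either young sum, Ccl11 stayed called for old over newborn but not for young over newborn, and without either newborn sum it was called in both. Old over young stayed at 0 members throughout. The 4 members with shares higher in adult than in newborn sums were the same without thinning, with at least 10 reads and without marker cells. Pairs above 1 in all 4 adult sums went to 4 with at least 10 reads, 10 within plates and 8 with stricter cells.

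Directions turned, always without passing the test, for 4 members; the cause was not tested. With the replicate block, the log2 fold change was 0.0015 for Ccl2, young over newborn, and 0.11 for Cxcl12, old over young. In thinned cells Ccl2, young over newborn, was 0.34. By limma Ccl2 was 1.36 for young over newborn and 0.62 for old over newborn, and Cxcl12, old over young, was 0.57. Leaving out 1 sum, Ccl2 ran from -0.72 (without newborn replicate 1) to 0.95 (without newborn replicate 2) for young over newborn, with 0.26 without young replicate 1. For old over newborn it ran from -1.37 (without newborn replicate 1) to 0.30 (without newborn replicate 2). Cxcl1 ran from -1.45 (without young replicate 2) to 0.48 (without young replicate 1) for young over newborn, and from -1.15 (without young replicate 1) to 0.77 (without young replicate 2) for old over young. Cxcl12 ran from -0.022 (without young replicate 2) to 2.15 (without newborn replicate 2) for young over newborn, and from -0.76 (without young replicate 1) to 1.07 (without young replicate 2) for old over young. Ccl8, old over young, ran from -0.65 (without old replicate 1) to 0.81 (without old replicate 2).

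With 2 sums per age, the spread is poorly known, and where 1 sum of an age is left out the lone sum is taken to vary like the others. Without newborn replicate 2 the log2 fold change of Cxcl14, old over newborn, was -9.88, against -11.75 with all sums.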
